A study of Mus musculus with 8 samples.

Results

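The MYC, MAX and MXD network is a family of transcription factors that pair with each other before they bind DNA. Of 10 listed genes of this network, 9 had a row under their symbol in a table of 14853 genes measured by RNA sequencing in mouse undifferentiated spermatogonia, and these 9 are described here. They are Mycn, Mycl, Max, Mga, Mnt, Mxd1, Mxd3, Mxd4 and Mxi1. Myc itself was not analysed here. Genes were taken by symbol alone, from a list drawn up with earlier results of these data known.

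The study compared 4 samples of genotype TERTCreER/flox (CreER/flox below), titled TERT-del, with 4 samples of genotype TERTCreER/+ (CreER/+), titled TERT-hetero. Every mouse also carried the Cre-dependent reporter Rosalsl-Tdtomato/+, was of strain C57BL/6, was 8 to 12 weeks old and had received tamoxifen. Tert encodes the reverse transcriptase of telomerase, and the loxP-flanked copy is deleted when tamoxifen activates CreER. The allele name places CreER at Tert, so the mice of both genotypes had CreER on that chromosome, and no source used here says whether that allele still makes telomerase. On day 7, cells were sorted for high MCAM, absence of KIT and the red reporter, and nothing in the labels says how many animals gave each sample. The adjusted p-values set the difference between genotypes against the spread between samples as fitted by the authors. That spread may therefore be technical in part.

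MYC proteins (MYC, MYCN and MYCL) bind the E-box sequence CACGTG as a dimer with MAX and raise transcription of genes for growth, ribosomes and division. The MXD proteins, MXI1 and MNT take the same partner and the same sites and bring the SIN3 corepressor with its histone deacetylases, so the balance of the groups for MAX is a known switch between proliferation and differentiation. MGA joins MAX inside a Polycomb complex, PRC1.6, that keeps germline genes silent in embryonic stem cells. In spermatogonia, Mycn is known as a gene that responds to GDNF, the niche signal for self-renewal. The human TERT gene is itself a known target of MYC with MAX and of MXD1 with MAX.

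Some of the network genes carry sequences in their own promoters that this family or the E2F family is known to bind. They are shown because Mycn was the member nearest to the threshold, without passing it, and because Max, Mnt and Mxd4 hold the E-box that the proteins recognise. Promoters were RefSeq windows of GRCm38.p6 from 250 bases before to 50 bases after the start site. The 30-base stretches with the E-box CACGTG in capitals, on the gene's strand, were as follows.
Max (minus strand, chr12:76962234-76962263): ggtgagcccggtCACGTGttagggggccga
Mnt (plus strand, chr11:74830789-74830818): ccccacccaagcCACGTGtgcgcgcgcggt
Mxd4 (minus strand, chr5:34187912-34187941): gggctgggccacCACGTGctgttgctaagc
The first base of the E-box stood at -3 in Max, -123 in Mnt and -219 in Mxd4 from the start site on which each window is built. These start sites are those of single RefSeq transcripts. They coincide with the outermost gene end printed below for Mycn and Mxd4, and lie inside the gene by 75 bases in Max, 118 in Mnt, 343 in Mycl and 24725 in Mga. The variant CACGCG, searched on either strand and in capitals below, was found in the windows of Mga and Mycl.
Mga (plus strand, chr2:119897195-119897224): agctggtaggagCGCGTGcgcagtgacgtg
Mycl (plus strand, chr4:122995899-122995928): ccaagccccgggCACGCGacgagatataaa
For Tert no match was listed, but whether it had a window was not recorded, so no absence is stated. No CACGTG or CACGCG lay in the windows of Mycn, Mxd1, Mxd3 or Mxi1 (3 windows). The start sites used lie inside the gene by 75 bases in Mxd1, 169 in Mxd3, and 378, 19285 and 19567 in Mxi1. Sequence at other start sites was not searched. The Mycn window instead held 3 matches to the E2F-type motifs TTTCGCGC and TTTGGCGC, searched on either strand, of which 2 overlap each other. They lie in the 45-base stretch below, with the matched bases in capitals from -183 to -161.
Mycn (minus strand, chr12:12941986-12942030): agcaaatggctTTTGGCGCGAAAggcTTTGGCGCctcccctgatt
By comparison, CACGTG was present in 7.15% of all 32851 promoter windows, CACGCG in 9.27%, TTTCGCGC in 0.323% and TTTGGCGC in 0.514%. Among the 11639 measured genes with a window, the shares were 11.8%, 19.2%, 0.739% and 1.06% in the same order. There a gene counted if any of its windows held the motif, so these shares are not comparable with those per window. A match is a description of the letters and does not show binding.

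The network genes were transcribed at very different levels in these cells. Levels are given as the mean normalized count over all 8 libraries per kilobase of the longest GENCODE M21 transcript, because longer transcripts collect more reads. Mga was highest, with 349.9 counts per kilobase computed from the authors' deposited table. Max, the shared partner, followed with 277 and Mycn with 228. Mxd3 (108) and Mxi1 (105) lay close together, and Mnt stood at 78.8. The lowest levels were those of Mxd4 (40.4), Mycl (32.1) and Mxd1 (24.5). The highest and the lowest member thus differed 14.3-fold per kilobase, and Mycn exceeded its paralogue Mycl 7.11-fold. Tert itself had a level of 22.7 counts per kilobase, near that of Mxd1. The spread of a level between libraries was not available for this order, so neighbours in it, such as Mxd3 and Mxi1, are not shown to differ.

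**Figure D1:**
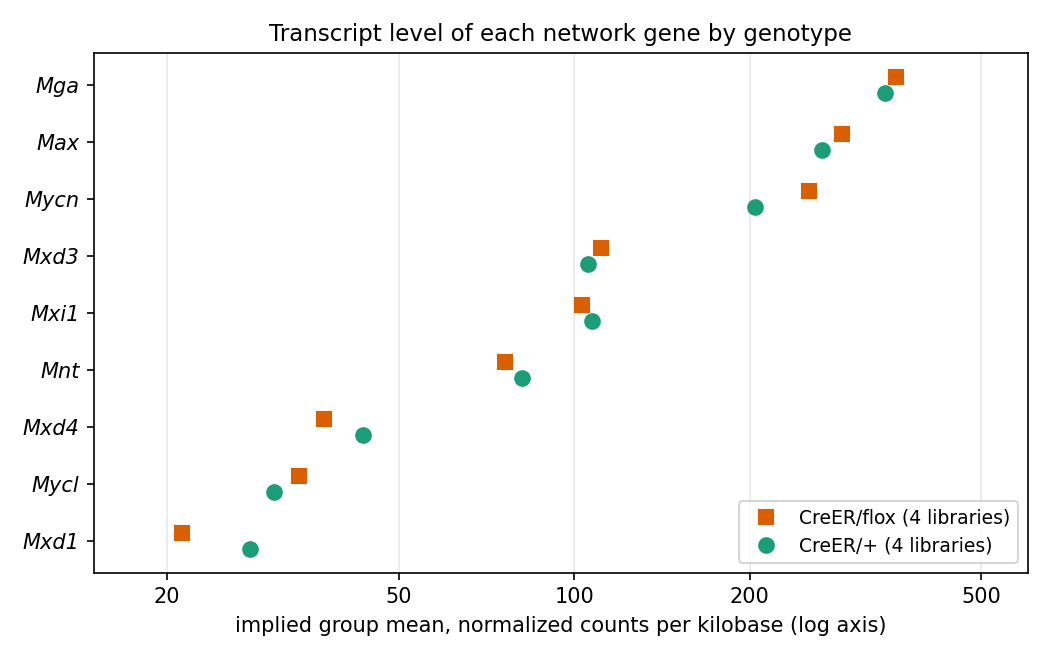
Transcript level of each network gene, as the group mean implied by the authors' mean count and fold change, in normalized counts per kilobase on a log axis, for CreER/flox (squares) and CreER/+ (circles); no error can be drawn from the table. Mga, Max and Mycn form the upper end, Mxd4, Mycl and Mxd1 the lower end, and the genotypes lie close together for every gene.

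The comparison of genotypes asks which transcripts change after acute deletion of Tert. None of the 9 network genes passed an adjusted p of 0.05 in the authors' deposited table, in which 5.36% of all genes passed (1.94% as higher and 3.42% as lower in CreER/flox). At an unadjusted p under 0.05 there were 2 members, Mycn and Mxd1, against 19.7% of all genes in the authors' deposited table. At an adjusted p under 0.1 there was 1 member, Mycn, against 9.02% of all genes. Mycn lay above 0 and Mxd1 below 0. Values of single libraries were not used here, so group means below are those implied by the authors' mean count and fold change for groups of 4 and 4. In bulk samples such as these, fewer cells of a type and less RNA per cell cannot be told apart.

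Mycn (Entrez gene 18109, chromosome 12, 12936093 to 12941836 in GRCm38.p6) encodes the MYC paralogue best known from embryonic progenitors and neuroblastoma. Its implied mean was 676 normalized counts in CreER/flox spermatogonia and 546 in CreER/+ spermatogonia. The authors' deposited table gives a log2 fold change of 0.31 (adjusted p 0.0501, SE 0.10), which is 1.24-fold with a 95% interval of 1.08-fold to 1.42-fold. This is the member nearest to the threshold. Its unadjusted p of 0.00270 ranked 799 of 14853 in the authors' deposited table, where 796 genes were called, and its Wald statistic was 3.0000 against a smallest called value of 3.0039. The range of adjusted p from 0.05 up to 0.06 held 120 genes of the authors' deposited table, so Mycn sits in a crowded zone. Adjustment over genes whose mean count was 100 or more gave Mycn an adjusted p of 0.0454 and the call with it, in a set where 6.47% of genes passed. With a trend in mean count, transcript length and GC content removed, the log2 fold change of Mycn was 0.30 and its adjusted p 0.0853.

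Mycl (Entrez gene 16918, chromosome 4, 122995588 to 123002490) encodes the third MYC paralogue, first found amplified in human lung cancer. It had an implied mean of 118 counts in CreER/flox and 107 in CreER/+ cells. Its log2 fold change was 0.14 in the authors' deposited table (adjusted p 0.764, SE 0.20). The 95% interval, 0.842-fold to 1.44-fold, contains that of Mycn, and the difference between the paralogues was not tested.

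Max (Entrez gene 17187, chromosome 12, 76937269 to 76962323) encodes the partner with which MYC and MXD proteins are known to bind the E-box. Implied means were 559 counts in CreER/flox and 516 in CreER/+ cells, and the authors' deposited table gives a log2 fold change of 0.12 (adjusted p 0.593, SE 0.10). Mga (Entrez gene 29808, chromosome 2, 119872503 to 119970129) encodes a very large protein with a T-box domain besides the region that pairs with MAX. It was the most precisely measured member, with implied means of 4980 counts in CreER/flox and 4769 in CreER/+ cells. Its log2 fold change in the authors' deposited table was 0.06 (adjusted p 0.663, SE 0.07), and its 95% interval ran from 0.956-fold to 1.14-fold. This interval was the narrowest of the network.

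The genes of the MAX-binding repressors were examined next. Mxd1 (Entrez gene 17119, chromosome 6, 86647044 to 86669234), which encodes a repressor known to appear as cells leave the cycle and differentiate, had the largest fold of the network. Its implied mean was 99.0 counts in CreER/flox and 129 in CreER/+ cells. The authors' deposited table gives a log2 fold change of -0.39 (unadjusted p 0.0415, adjusted p 0.229, SE 0.19), or 0.765-fold with a 95% interval of 0.591-fold to 0.990-fold. The value did not pass the test.

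Mxd4 (Entrez gene 17122, chromosome 5, 34176580 to 34187710), a relative of Mxd1 also linked to differentiation, had 172 implied counts in CreER/flox and 201 in CreER/+ cells. It stood at -0.22 in the authors' deposited table (adjusted p 0.474, SE 0.16). Mnt (Entrez gene 17428, chromosome 11, 74830806 to 74845725) encodes a repressor found in dividing and resting cells alike, and had 349.8 implied counts in CreER/flox against 374 in CreER/+ cells. The authors' deposited table placed it at -0.10 (adjusted p 0.722, SE 0.12). Mxi1 (Entrez gene 17859, chromosome 19, 53310128 to 53373293), named as a MAX interactor, had 519 implied counts in CreER/flox and 540.0 in CreER/+ cells, with a log2 fold change of -0.06 in the authors' deposited table (adjusted p 0.830, SE 0.10).

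Mxd3 (Entrez gene 17121, chromosome 13, 55325170 to 55329900) differs from its relatives in being known from proliferating cells in S phase. It was the repressor gene above 0, with 194 implied counts in CreER/flox and 184 in CreER/+ cells and a log2 fold change of 0.07 in the authors' deposited table (adjusted p 0.860, SE 0.16). Over the network, the 2 MYC genes, Max, Mga and Mxd3 were above 0 and the other repressor genes below 0, without a call among them. Of all genes in the authors' deposited table, 50.1% were above 0. Mnt moved to 0.0023 when the trend in mean count, length and GC content was removed, and so changed sign. Max then stood at 0.03, Mycl at 0.25 and Mga at 0.10, and the median of the 9 members was 0.03, against 0.06 as deposited.

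**Figure D2:**
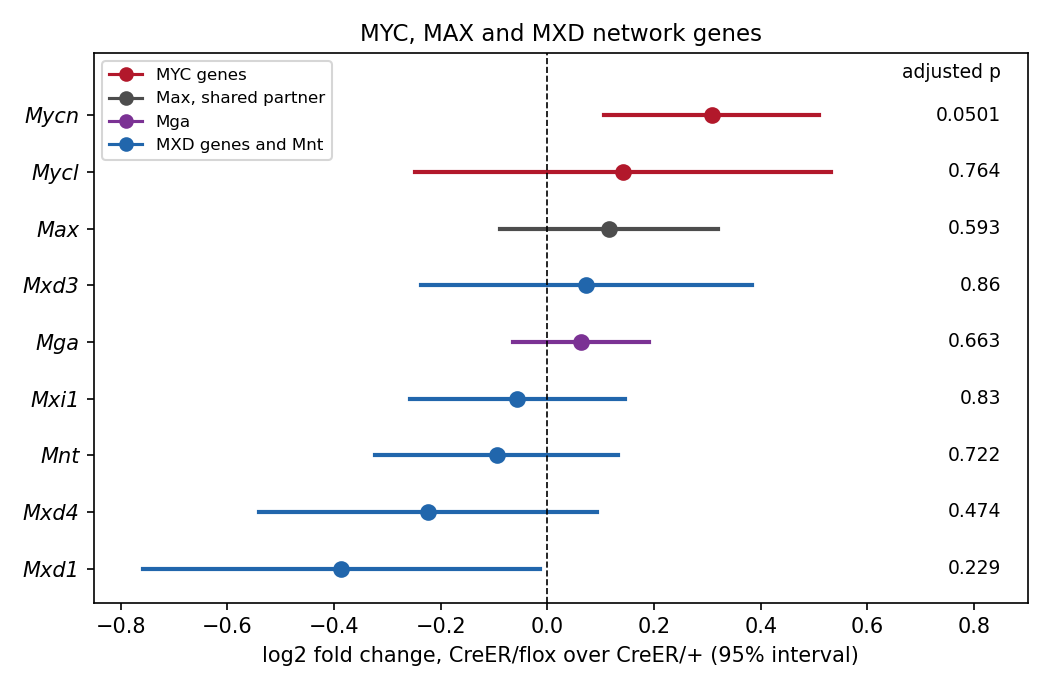
Log2 fold change of each network gene, CreER/flox over CreER/+, with its 95% interval from the authors' SE; colours give the role and the right column the adjusted p. The intervals of Mycn and Mxd1 leave out 0, on opposite sides, and the adjusted p of every gene is above 0.05, with Mycn at 0.0501.

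How large an estimated change had to be for a call differed between the members. At the smallest Wald statistic called, Mga needed a fold of 1.15, Mycn and Max 1.24, Mxd3 1.39, Mxi1 1.24, Mnt 1.27, Mxd4 1.40, Mxd1 1.48 and Mycl 1.51, all computed from the SEs of the authors' deposited table. Estimates for Mxd1 and Mycl smaller than these could not be called with these SEs and this adjustment. The SEs of the 9 members were 0.930 to 0.993 times the median SE of genes of like mean count, so none of them exceeded it.

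**Figure D3:**
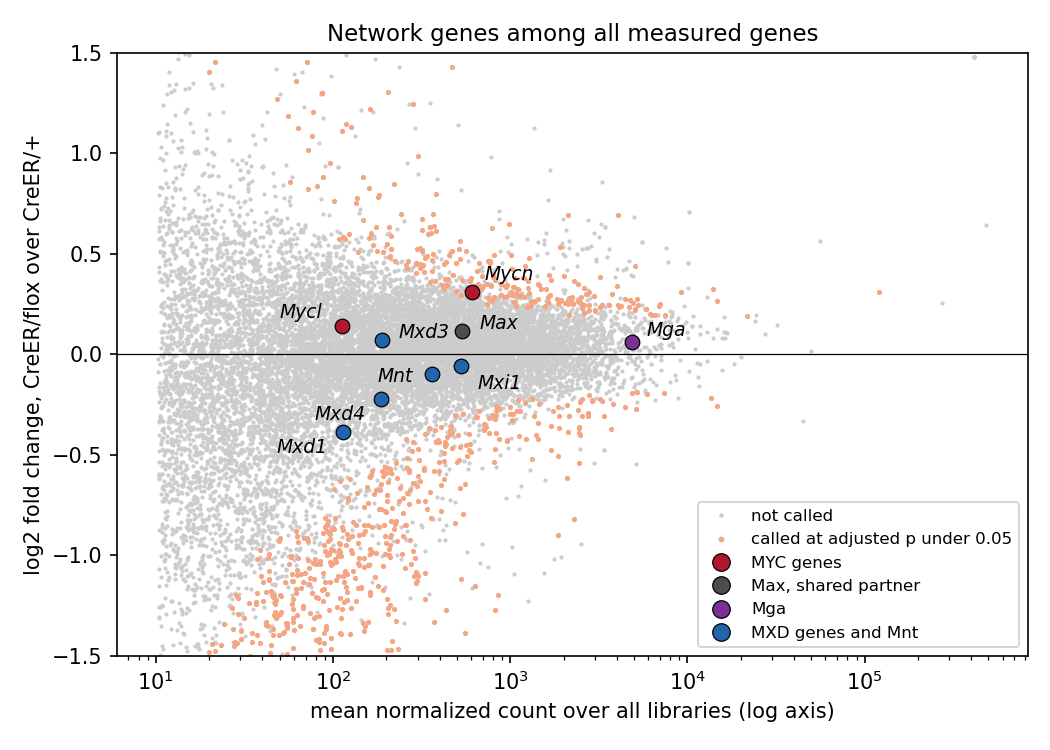
Log2 fold change, CreER/flox over CreER/+, against the mean normalized count on a log axis for all genes, with called genes in orange and network genes as outlined points; 159 genes beyond 1.5 on the vertical axis are outside the plot. Mycn lies on the inner edge of the called genes of its abundance and the other members lie inside the uncalled cloud.

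Annotated neighbours overlap some members. The GENCODE M21 annotation places the antisense gene Gm42846 at the 3' side of Mxd4, AC133451.2 and Gm10197 on the opposite strand within Mxi1, and the end of Prelid1 across 105 bases of Mxd3. Gm42846 (34173887 to 34174887) lies outside the RefSeq coordinates of Mxd4 printed above, so that overlap holds for the GENCODE model only. Unconfirmed models on the same strand, Gm47218 and Gm44292, lie within Max and Mxd1. The kit keeps strand, but no source used here gives the strand setting of the counting, and reads of these neighbours could count for the members. Mycn, Mycl, Mga and Mnt have no overlapping gene in that annotation.

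Proteins that work with the network were followed through lists. The parallel MLX branch, in which MLX pairs with the glucose-sensing factors encoded by Mlxip and Mlxipl, had 0 of 5 genes called and a median log2 fold change of 0.09, beside 0.00071 for all genes. With the trend in mean count, length and GC content removed the median was 0.22. Mlx had the smallest p of this list, at 0.38 in the authors' deposited table (adjusted p 0.160, SE 0.17). Arrdc4, a target of this branch, stood at 0.24 in the authors' deposited table (adjusted p 0.316, SE 0.13).

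Among 14 genes of MYC coactivators, 2 fell and 0 rose, beside 3.42% of all genes called lower and 1.94% called higher. The list median was -0.07, and -0.02 with the trend in mean count, length and GC content removed. Bptf, which encodes the large subunit of the nucleosome remodeller NURF, fell with a log2 fold change of -0.37 in the authors' deposited table (adjusted p 0.0122, SE 0.10). Trrap, the scaffold through which MYC recruits histone acetyltransferases, fell with -0.19 in the authors' deposited table (adjusted p 0.0186, SE 0.06). Implied means of Trrap were 6843 counts in CreER/flox and 7824 in CreER/+ cells. Both calls ended when that trend was removed, where Bptf stood at -0.26 (adjusted p 0.148) and Trrap at -0.05 (adjusted p 0.788).

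The corepressor list, on which MXD proteins and MNT depend, had 0 of 11 genes called and a median of 0.04, which turned to -0.0051 with the trend removed. Sin3a, the main scaffold, stood at 0.01 and Sin3b at 0.10 in the authors' deposited table. The smallest p values of the list were those of Ncor1 (-0.27, adjusted p 0.0936, SE 0.10) and Suds3 (0.20, adjusted p 0.133, SE 0.08) in the authors' deposited table. Genes that set the lifetime of MYC proteins also had 0 of 12 called, with a median of -0.0049 that turned to 0.02 with the trend removed. The nearest to a call in the authors' deposited table was Cip2a, whose product shields MYC from dephosphorylation (0.33, adjusted p 0.0709, SE 0.12). Fbxw7, the ubiquitin ligase subunit that marks MYC and MYCN for destruction, stood at -0.00086 with an SE of 0.08 in the authors' deposited table. Aurka, the kinase known to stabilise MYCN, stood at 0.22 (adjusted p 0.487, SE 0.17) in the authors' deposited table.

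MGA and MAX share the PRC1.6 complex with 9 further listed subunits, of which 0 were called, with a median of 0.05. The DNA-binding subunit gene E2f6 (0.23, adjusted p 0.0708, SE 0.08) and the ubiquitin ligase gene Rnf2 (0.28, adjusted p 0.0725, SE 0.10) had the smallest p values in the authors' deposited table. Pcgf6, which defines the complex, stood at 0.06 (SE 0.12) in the authors' deposited table. Of 13 germline genes known to be held silent through MAX and MGA in embryonic stem cells, 1 rose and 0 fell, beside 1.94% and 3.42% of all genes, and the median was 0.12. The gene that rose was Dazl, an RNA-binding protein gene of germ cells, at 0.23 in the authors' deposited table (adjusted p 0.00997, SE 0.06). Ddx4 stood at 0.20 (SE 0.11) and Mael at -0.0076 (SE 0.06) in the authors' deposited table. The Dazl value was 0.04 with an adjusted p of 0.859 once the trend in mean count, length and GC content was removed. The medians of the subunit list and the germline list were then -0.06 and -0.03.

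Textbook MYC target genes had 20 of 24 members above 0, beside 50.1% of all genes, and a median of 0.10, but 0 were called. The median was 0.06 with the trend in mean count, length and GC content removed. At an unadjusted p under 0.05 there were 7 of 24, beside 19.7% of all genes. The chaperone gene Hspd1 was nearest to a call (0.21, adjusted p 0.0519, SE 0.07), followed by the nucleolar gene Npm1 (0.19, adjusted p 0.0941, SE 0.07), both in the authors' deposited table. Odc1, the rate-limiting enzyme gene of polyamine synthesis and a classical MYC target, stood at 0.20 (adjusted p 0.177, SE 0.09) in the authors' deposited table. Ldha was the lowest of the list at -0.43 (adjusted p 0.187, SE 0.20) in the authors' deposited table. Tert, which belongs to this list, stood at 0.29 in the authors' deposited table (adjusted p 0.595, SE 0.26). Which part of Tert is deleted is not stated in these sources, and the value is no check of the labels or of the direction.

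**Figure D4:**
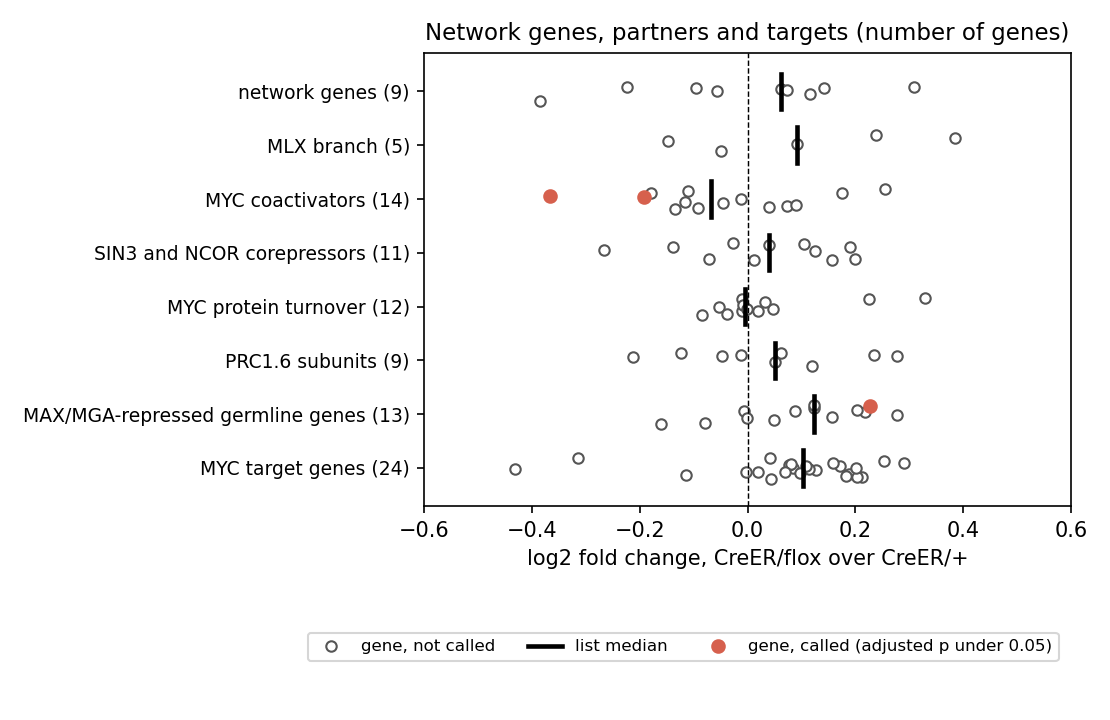
Log2 fold change, CreER/flox over CreER/+, of each gene (circles, filled where called) in the network list and 7 lists of partners and targets, with the list median as a bar and the number of genes in brackets. Bptf and Trrap are the filled points below 0 and Dazl the one above 0, and the median of the 24 MYC target genes is 0.10 as deposited.

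Genes with an E-box in the promoter window were compared with the remaining genes as a description. Of 11639 measured genes with a RefSeq window, 1368 (11.8%) held CACGTG. Their median log2 fold change was 0.01, against -0.0023 for the 10271 genes without it. The share called was 4.39% with the E-box and 4.96% without it. CACGCG gave 3.84% with and 5.14% without the motif. Genes with TTTCGCGC, the E2F-type motif found in Mycn, numbered 86, with a median of 0.10 against -0.0015 without it, and 2 of them (2.33%) were called. TTTGGCGC was held by 123 genes, with a median of 0.05 and 3 called (2.44%). Of the genes without TTTCGCGC 4.91% were called, and likewise 4.91% of those without TTTGGCGC. Genes with a motif were also more abundant, with median mean counts of 274 for CACGTG and 496 for TTTCGCGC, against 198 and 204 without them.

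Marker genes are given as a description of the cells. Because the cells were sorted for high MCAM and absence of KIT, the levels of Mcam and Kit are no check of identity. Markers of later stages also had high mean counts, among them Sycp1 of spermatocytes (2333) and Tnp1 of spermatids (1924) in the authors' deposited table. All 12 markers of undifferentiated spermatogonia had a row. By mean count in the authors' deposited table they ran from Nanos2 (66.1) to Zbtb16 (5143), with Mcam at 4854 and Gfra1 at 2586. Their median log2 fold change was -0.07, with 9 of 12 below 0 and 0 called. Nearest to a call in the authors' deposited table were Ret, the GDNF co-receptor gene (-0.23, adjusted p 0.0798, SE 0.08), and Zbtb16 (-0.18, adjusted p 0.0875, SE 0.07). The 4 markers of differentiating spermatogonia had 0 called and 3 at an unadjusted p under 0.05. By mean count they were Sohlh2 (681), Stra8 (350.4), Kit (93.1) and Dmrtb1 (79.9) in the authors' deposited table. The log2 fold changes in the authors' deposited table were -0.91 for Dmrtb1 (SE 0.37), 0.23 for Sohlh2 (SE 0.10), 0.30 for Stra8 (SE 0.15) and -0.29 for Kit (SE 0.21). Markers of spermatids, the later haploid cells, were lower in CreER/flox cells. All 10 were below 0, 4 were called, the median was -1.17, and their implied counts summed to 4733 in CreER/flox and 10212 in CreER/+ cells. Whether spermatid RNA has a part in the values of Mxd1, Mxd4 or other members was not tested. The called ones were Odf1 (-1.14), Spem1 (-1.47), Tssk1 (-1.37) and Akap4 (-1.20) in the authors' deposited table. Of 7 spermatocyte markers 2 were called, Piwil1 (-0.73) and Sycp2 (-0.53), and of 5 measured Sertoli cell markers 1 was called, Trf (0.62), all in the authors' deposited table. The spermatocyte list had 5 markers below 0 and 2 above, Sycp1 (0.14) and Sycp3 (0.09), with a median of -0.35. Trf had a mean count of 316 in the authors' deposited table. The other measured Sertoli markers were far lower, with 33.6 for Clu, 24.3 for Wt1, 16.7 for Sox9 and 16.2 for Rhox5. The Sertoli list had 2 above 0 and 3 below, with a median of -0.03. With the trend in mean count, length and GC content removed, these medians were -0.26 and 0.19. Among the leukocyte markers Cd68 was the one measured, with a mean count of 13.0 in the authors' deposited table.

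**Figure D5:**
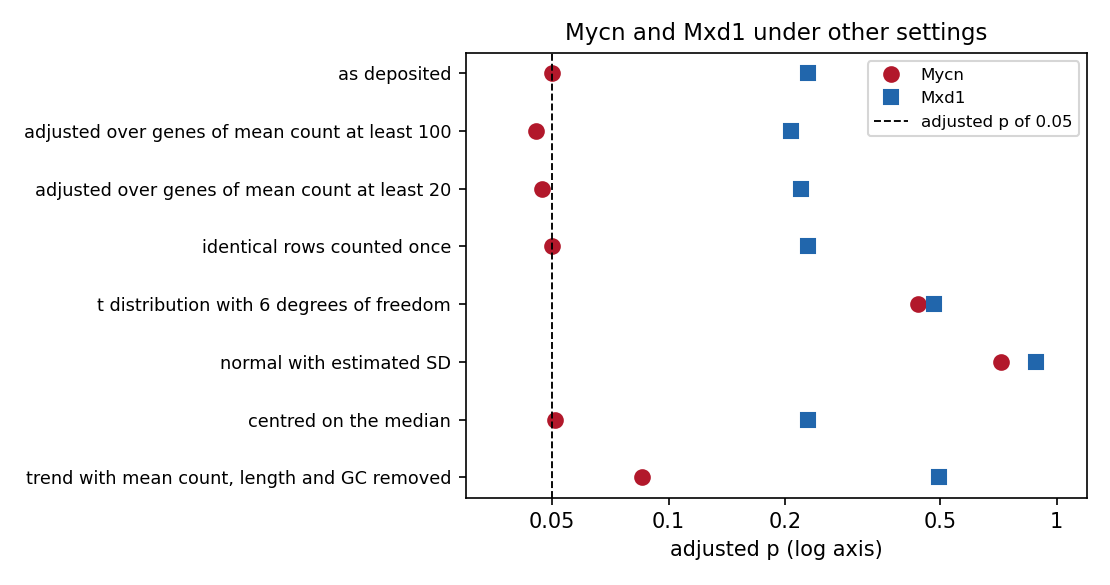
Adjusted p of Mycn (circles) and Mxd1 (squares), CreER/flox against CreER/+, as deposited and under 7 other settings, on a log axis with a dashed line at 0.05. Mycn lies left of the line with the adjustment over genes of mean count at least 100 or 20 and on or right of it at the other settings, and Mxd1 lies right of it at all of them.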

How the data were processed

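Per the submitters' processing notes, the tools were DESeq2, Bowtie, Bowtie2 2.0.0-6, TopHat2 2.0.4 and Trim Galore, and the builds mm10 and GRCm38. The counting program, strand setting and annotation are not given in the sources. Libraries came from total RNA with a stranded low-input kit, per the labels' protocols.

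The authors deposited a single comparison table. Its mean count is a normalized count signal over all libraries, its fold change and SE are log2 values, its score is the Wald statistic, and its p-value and adjusted p-value are those of the DESeq2 test, per the file headers. A Benjamini-Hochberg adjustment over all rows gave the deposited adjusted p to within 0.426%. The direction, CreER/flox over CreER/+, was taken from the table's name, which calls the second group WT. No model was refitted, and library totals were not used here. The median gene had a mean count of 192.

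Computed here were 95% normal intervals, implied group means (mean count split by the fold change for 4 and 4 libraries, an approximation), levels per kilobase (lengths found for 93.8% of rows), list counts and medians, and motif searches. Symbols and coordinates are RefSeq's of GRCm38.p6, matched for 14828 rows. The trend was a weighted polynomial of degree 3 over 13694 protein-coding rows. The code of the adjustment and the trend removal was run on simulated data, with normal noise of the deposited SEs and covariates drawn independently. That run checks the code and not whether either step suits the real statistics. Members and lists were chosen with earlier results of these data known, and the CACGCG and E2F-type motifs after the values were seen. Named were all members, Tert, and in each list the called genes or, with none called, up to 2 of smallest p. Other list genes were named after their values were seen. The software was matplotlib 3.10.9, scipy 1.17.1, numpy 2.4.6 and pandas 2.3.3 under Python 3.11.15.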

Additional observations from a re-analysis of the deposited data

How the results depend on the processing

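The count of 0 called network genes became 1, Mycn, at an adjusted p under 0.1 (where 9.02% of genes passed) and with the adjustment over genes whose mean count was at least 100 or at least 20 (adjusted p 0.0454 and 0.0471). It stayed 0 at the other settings, where the adjusted p of Mycn reached 0.720. The count of 796 called genes was 1340 at an adjusted p under 0.1, 264 under 0.01, 5 with a null SD of 1.45 estimated from the statistics, and 392 with the trend removed. By a t distribution with 6 degrees of freedom it was 0, with 1652 genes and 1 network gene at an unadjusted p under 0.05. That distribution and the estimated SD ended the call of every list gene named as called, the markers Odf1, Spem1, Tssk1, Akap4, Piwil1, Sycp2 and Trf included, whereas trend removal ended those of Bptf, Trrap and Dazl. Trend removal reversed Mnt to 0.0023 and moved the medians of the PRC1.6 subunits to -0.0564 and of the germline genes to -0.0323. It also turned the medians of the corepressors (-0.0051) and MYC turnover genes (0.0167) and moved those of the MLX branch (0.215), coactivators (-0.0237), MYC targets (0.0648) and the network (0.0316), with Max at 0.0316 and Mycl at 0.248. The cause was not tested. Without division by length, the order of levels was Mga 1, Mycn 2, Max 3, Mxi1 4, Mnt 5, Mxd3 6, Mxd4 7, Mxd1 8 and Mycl 9. No paired analysis was possible because the table holds no values per library, and leaving out replicates was not run for the same reason.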
